A study of Mus musculus with 38 samples.

Results

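Imprinted genes are expressed mainly or only from the allele inherited from 1 parent. The 51 examined here were listed by symbol, from known mouse imprinted clusters (Igf2-H19, Kcnq1ot1, Dlk1-Meg3, Peg3, Snrpn, Mest, Peg10, Gnas, Igf2r-Airn, Grb10, Nnat) and single loci, and the list uses no threshold on a measured value. Probes carried the current or an older symbol of 47 of the 51, among 18300 symbols in all. H19, Begain, Kcnq1ot1 and Magel2 were not analysed here. Meg3 was found under its older symbol Gtl2 and Airn under 2810051F02Rik. The 47 genes had 56 probes, and 6 of them (Rian, Meg3, Snrpn, Ube3a, Gnas and Ppp1r9a) had more than 1.

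The animals were mouse embryos with hypomorphic Dnmt3b, a DNA methyltransferase gene whose function is reduced in these mutants, on a mixed 129SvJae and C57BL/6 background. Thymus was taken at 18.5 days post coitum (dpc) and embryonic fibroblasts were derived at 12.5 dpc, from 5 numbered hypomorphs per tissue. The labels name the alleles, m3/m24, on 15 of 18 thymus arrays and on none of the 20 fibroblast arrays. On every array the hypomorph RNA was hybridised with wild-type RNA of its tissue, pooled from 5 wild types, and both dye orientations were used. The pool is a single control sample, so the spread between wild-type embryos is not in any test. The labels do not say whether each fibroblast number is a separate embryo, and p-values measure only the spread between these numbered samples, called embryos here.

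In an imprinted cluster, DNA methylation laid down on 1 parental copy of a control region in the germ line is kept through embryonic development and fixes which parental copy of the neighbouring genes is active. Many paternally expressed genes promote fetal growth and many maternally expressed ones restrain it, and several clusters also make long noncoding RNAs. Dnmt3b is chiefly a de novo methyltransferase, and the arrays read total RNA, which does not separate the parental alleles.

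All values are log2 ratios of hypomorph over pool, centred on the median of each array. They are means over the arrays of an embryo, balanced over the dyes. The direction of the deposited ratios is not labelled and is called likely: the upper bound of the values, 16.61, was reached 445 times on arrays with the hypomorph in Cy5 and 0 times on those with it in Cy3, and the lower bound 423 times with it in Cy3 and 0 times with it in Cy5. A ratio carries no level, so a value near 0 does not separate an unchanged gene from a silent one, and the labelled tissue could not be checked against its defining markers. In these bulk samples, fewer cells of a type and less RNA per cell cannot be told apart. The Dnmt3b probe itself was at -0.08 ± 0.15 in thymus and 0.11 ± 0.11 in fibroblasts (SD, n = 5 each), and a change in the protein alone would not show there.

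Several fibroblast arrays went against their labels. Correlations of an array with its own or another embryo were taken after removing the dye profile, the mean of all arrays of that tissue and dye orientation. Array 4 of embryo 4 correlated at r = -0.120 with the other arrays of that embryo, and Eif2s3y, a gene of the Y chromosome, was at 3.16 on it, against -0.36, 0.35 and -0.51 on arrays 1 to 3. Array 2 of embryo 1 had Eif2s3y at 0.28, against -2.08, -2.21 and -1.39 on arrays 1, 3 and 4, and correlated at r = -0.016 with its own embryo. Array 4 of embryo 1 correlated at r = -0.183 with its own embryo and at 0.273 with embryo 2. Array 4 of embryo 2 correlated at r = -0.016 with its own embryo and at 0.253 with embryo 3. For array 1 of embryo 2 these values were 0.022 and 0.110. Arrays 1 and 3 of embryo 1 correlated at 0.123 and 0.022 with their own embryo, against 0.229 and 0.259 with embryo 5. With the dye profile left in, array 4 of embryo 1 and array 3 of embryo 2 correlated at r = 0.872 over all features. The next best pair of one dye orientation, both of thymus embryo 2, reached 0.790 in that same measure. With the dye profile removed, 7 of 20 fibroblast arrays and 8 of 18 thymus arrays correlated better with another embryo than with their own. The arrays treated as in doubt below were array 4 of embryo 4 and arrays 2 and 4 of embryo 1. The other arrays of embryos 1 and 2 named here were not left out with them. For Rian and Grb10, fits below are given with and without array 4 of embryo 4. Values of the other members include the arrays in doubt unless stated, and some depend on them. Without array 4, embryo 4 moved from -0.27 to -0.605 for Atp10a and from 0.07 to -0.12 for Cd81. It moved from -0.25 to -0.47 for Dio3 and from 0.32 to 0.53 for Mest. For the main genes the single arrays are given.

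Neither tissue had an imprinted gene past the threshold of an adjusted p under 0.05 in limma, with adjustment over all features. In thymus 0 of 46 tested members passed, where 0.0228% of 21947 features did. Sgce, a sarcoglycan, had values in 4 thymus embryos only and was not tested there. In fibroblasts 0 of 47 passed, where 0.00454% of 22025 features did. At an unadjusted limma p under 0.05 there were 3 members in thymus (Cdkn1c, Dcn and Mest), where 7.48% of all features reached it, and 7 in fibroblasts (Rian, Grb10, Cdkn1c, Atp10a, Slc22a18, Cd81 and Gatm), where 16.1% did. Both shares of members are near the background.

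The spread of the members differed between the tissues. In thymus their mean ratios ran from -0.30 to 0.25 with a median of 0.020, against a median of 0.008 for all features, and 95.7% lay within 0.25 of 0, against 96.5% of all features. In fibroblasts they ran from -0.82 to 1.404 with a median of 0.025, against -0.002 for all features, and 80.9% lay within 0.25 of 0, against 89.9%. The median SD between embryos was 0.135 for the members and 0.136 for all features in thymus, and 0.192 and 0.126 in fibroblasts. By allele, the paternally expressed members had a median of 0.019 in thymus (19 genes) and 0.014 in fibroblasts (20 genes), and the maternally expressed ones 0.033 and 0.039 (26 genes each).

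**Figure D1:**
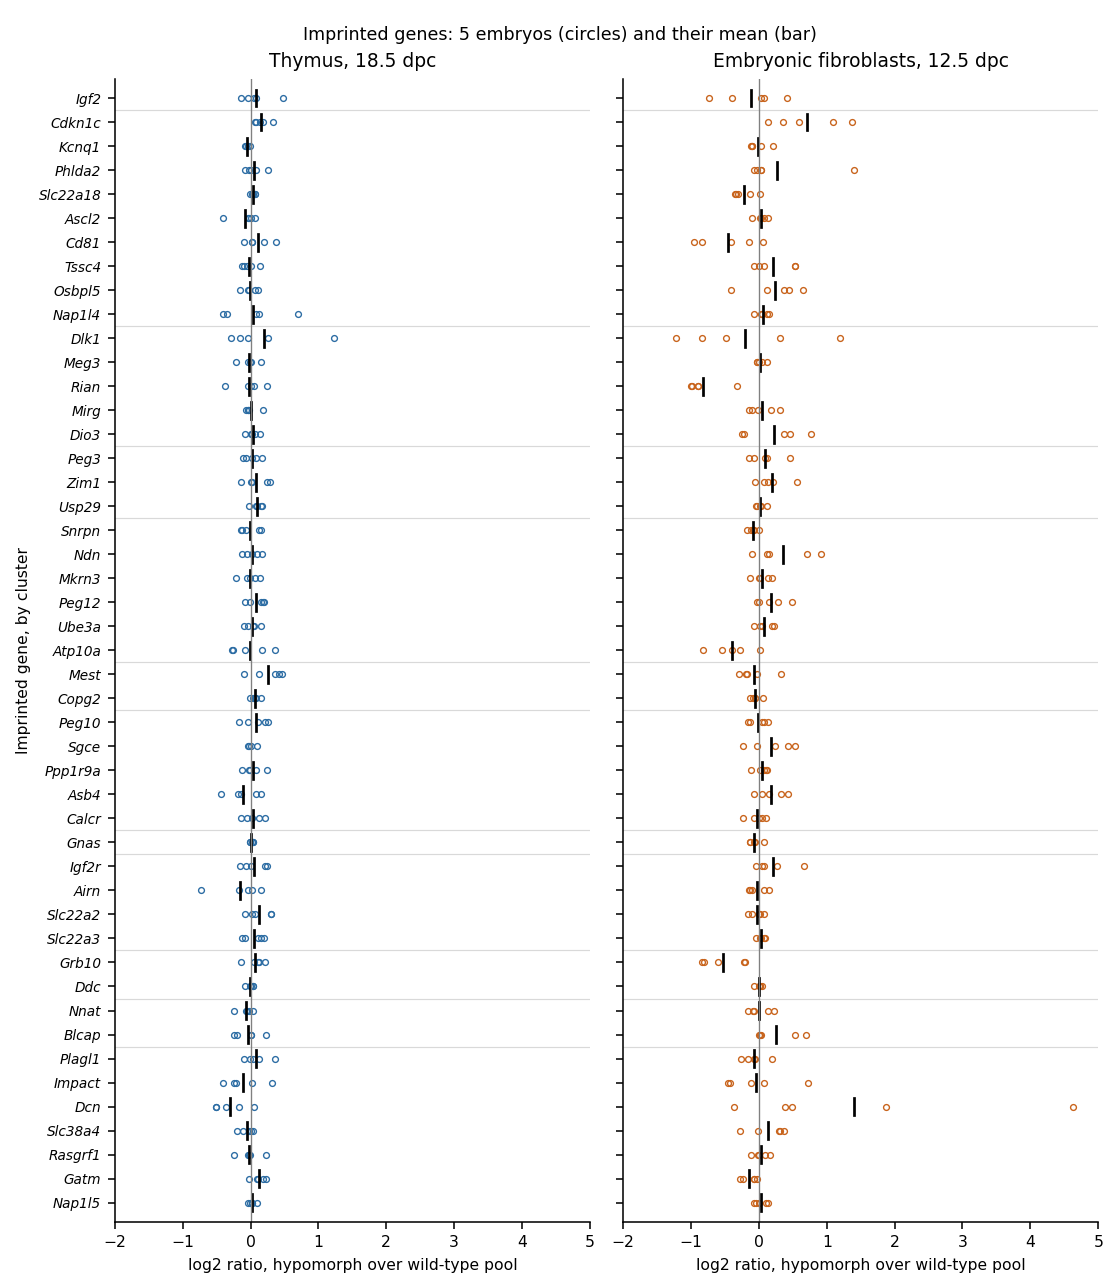
Log2 ratio of hypomorph over wild-type pool (x axes) for each measured imprinted gene (rows, grouped by cluster with grey lines between clusters), in thymus (left) and fibroblasts (right). Circles are the embryos and black bars the mean over 5 of them (Sgce in thymus has 4 embryos and no bar). The thymus means stay between -0.30 and 0.25, while in fibroblasts Rian averages -0.82, Grb10 -0.53, Cdkn1c 0.71 and Dcn 1.404.

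The lowest member was Rian, a maternally expressed long noncoding RNA of the Dlk1-Meg3 cluster that hosts small nucleolar RNAs. In fibroblast embryos 1 to 5 it was at -0.99, -0.89, -0.99, -0.32 and -0.90. All 5 lay below the pool, and embryo 4 stood apart from the other 4. The mean was -0.82 ± 0.29 (SD, n = 5), 1.76-fold lower in hypomorphs, with an adjusted limma p of 0.128 and rank 47 of 22025 features by p. Both Rian probes gave this value, with means of -0.82 and -0.82.

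Part of the weaker value of embryo 4 came from 1 array. Without that array the embryo was at -0.67, still weaker than the -0.99 to -0.89 of the other 4 embryos. Rian was below 0 on 19 of 20 fibroblast arrays, from -1.395 to -0.42, and stood at 0.95 on array 4 of embryo 4, whose other arrays read -0.85, -0.46 and -0.90. With the hypomorph in Cy5 it averaged -0.50 over arrays, and in Cy3 -1.14. A value below 0 on every array or all but 1 was found for 2 of 47 members, Rian and Grb10. Of 21276 features with a value on all arrays, 0.841% had it. The allowance of 1 array matches what these genes show, and the arrays of an embryo are technical repeats, so this count is not a test. Without array 4 of embryo 4, Rian averaged -0.89 ± 0.13 and fell in hypomorph fibroblasts with an adjusted limma p of 0.0131, the only member to pass where 0.378% of features did (range over all settings tried 0.00011 to 0.491). Leaving out arrays 2 and 4 of embryo 1 as well gave -0.93 with an adjusted limma p of 0.0587. Without only the near-identical pair, array 4 of embryo 1 and array 3 of embryo 2, it averaged -0.84 with an adjusted limma p of 0.161.

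In thymus Rian was at -0.38, 0.25, -0.03, 0.05 and 0.01 in embryos 1 to 5, on both sides of the pool, with a mean of -0.02 ± 0.23. Its 18 thymus arrays divided evenly, 9 above and 9 below 0.

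The 2 other noncoding RNAs of the cluster, transcribed from the same strand and the same parental copy, averaged near the pool. Meg3, the best known of them, was at 0.12, -0.02, -0.03, -0.004 and 0.05 in fibroblast embryos, a mean of 0.02 ± 0.06. Mirg, which hosts microRNAs, was at 0.18, -0.10, -0.14, -0.01 and 0.31, a mean of 0.05 ± 0.19. Their thymus means were -0.02 ± 0.13 for Meg3 and 0.002 ± 0.10 for Mirg. The Mirg ratio changed sign with the dye. Its fibroblast arrays averaged 0.51 with the hypomorph in Cy5 and -0.41 with it in Cy3, and its thymus arrays 0.42 and -0.41. The Mirg means near 0 are thus averages over opposite dye orientations. The 2 Meg3 probes averaged 0.06 and -0.11 in thymus and -0.04 and 0.08 in fibroblasts, so the sign of its mean depends on the probe. Whether Rian differs from Meg3 or Mirg was not tested, since each ratio comes from its own probes.

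**Figure D2:**
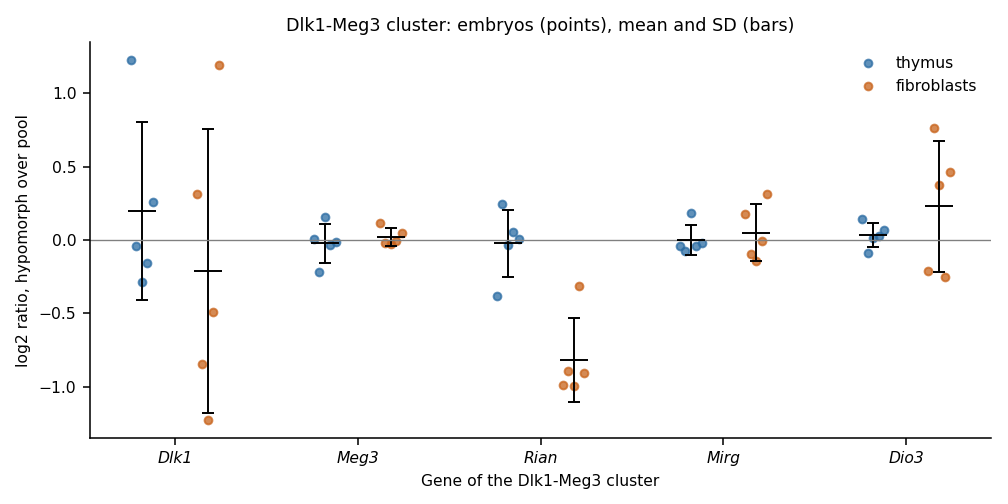
Log2 ratio of hypomorph over pool (y axis) for the 5 measured genes of the Dlk1-Meg3 cluster (x axis), in thymus (blue, left of each pair) and fibroblasts (orange, right). Points are the 5 embryos, and black bars the mean and SD. Rian in fibroblasts lies below 0 in all 5 embryos with a mean of -0.82, Meg3 and Mirg average 0.02 and 0.05 there, and Dlk1 spreads over both sides of 0 in either tissue.

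The bases before the starts of these RNAs are shown because CG is the pair of neighbouring bases that DNA methyltransferases act on. Rian, the lowest member, is set beside its neighbours Meg3 and Mirg and beside Grb10, the next lowest of those below 0 in every fibroblast embryo. Each window holds 250 bases before and 50 after a transcript start in RefSeq (GRCm38.p6), read 5′ to 3′ on the gene's strand, with each CG in capitals. Rian is at chr12:109603695-109603994 on the plus strand, Meg3 at chr12:109540746-109541045 on the plus strand (the first of its 2 starts), Mirg at chr12:109734731-109735030 on the plus strand, and Grb10 at chr11:12037371-12037670 on the minus strand (the start with more CG).

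Rian: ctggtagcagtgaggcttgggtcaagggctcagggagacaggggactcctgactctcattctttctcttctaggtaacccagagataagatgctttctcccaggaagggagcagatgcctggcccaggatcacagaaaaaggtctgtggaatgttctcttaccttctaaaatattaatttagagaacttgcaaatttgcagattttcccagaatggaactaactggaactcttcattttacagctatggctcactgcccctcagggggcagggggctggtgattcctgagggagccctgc
Meg3: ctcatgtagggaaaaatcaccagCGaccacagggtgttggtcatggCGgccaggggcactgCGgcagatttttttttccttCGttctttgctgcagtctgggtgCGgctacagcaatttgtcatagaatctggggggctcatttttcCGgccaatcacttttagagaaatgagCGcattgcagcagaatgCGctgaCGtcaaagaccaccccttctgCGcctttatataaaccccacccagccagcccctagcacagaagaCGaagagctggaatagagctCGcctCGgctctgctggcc
Mirg: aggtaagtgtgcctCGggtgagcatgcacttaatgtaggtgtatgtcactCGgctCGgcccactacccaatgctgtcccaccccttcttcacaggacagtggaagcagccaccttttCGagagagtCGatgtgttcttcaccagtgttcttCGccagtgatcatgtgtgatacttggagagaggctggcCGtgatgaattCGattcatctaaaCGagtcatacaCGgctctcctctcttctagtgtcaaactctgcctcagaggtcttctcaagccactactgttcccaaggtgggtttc
Grb10: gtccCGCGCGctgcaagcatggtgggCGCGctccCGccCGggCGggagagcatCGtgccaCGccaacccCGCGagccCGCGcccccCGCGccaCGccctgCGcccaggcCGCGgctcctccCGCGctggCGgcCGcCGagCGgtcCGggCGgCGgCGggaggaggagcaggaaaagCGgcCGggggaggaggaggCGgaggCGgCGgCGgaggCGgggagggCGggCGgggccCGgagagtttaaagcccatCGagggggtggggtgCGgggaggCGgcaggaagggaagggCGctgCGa

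The motif CG, which reads the same on both strands, was absent from the Rian window, and occurred 13 times in the Meg3 window, 10 times in the Mirg window and 45 times in the Grb10 window. Over all 32851 RefSeq windows of this length, 94.6% held at least 1 CG and the median was 7, while 1.93% held 45 or more. Of the measured members, 40 were found in that table, and their 61 windows had a median of 14. Rian's was the only 1 of them with none. The second start of Meg3 had 1 CG, the second of Grb10 9, and the Dlk1 start 9. No methylation was measured here, so the counts describe the sequence alone.

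The paternally expressed growth genes varied between embryos with no common direction. Dlk1, a transmembrane relative of the Notch ligands made by fetal and stromal cells, was at 0.31, -0.84, -1.22, -0.49 and 1.19 in fibroblast embryos 1 to 5. Embryos 1 and 5 were above the pool and the others below it, and the mean of -0.21 ± 0.97 was inside the spread between embryos (SD). Its adjusted limma p was 0.799. In thymus the values were 1.22, -0.04, -0.29, -0.16 and 0.26, a mean of 0.20 ± 0.61, with embryo 1 far above the rest. The Y chromosome gene Eif2s3y also differed between embryos. It was at -3.965 to -2.41 in thymus embryo 1 and at -0.84 to 0.77 on the other thymus arrays. In fibroblasts it was at -4.33 to -2.78 in embryo 5, and at -3.20 to -1.27 in embryo 2, where Dlk1 was low. Whether this difference between embryos bears on the imprinted genes was not tested.

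The Dlk1 value of fibroblast embryo 1 is an average of arrays that disagree. Arrays 1 and 3 gave 1.72 and 1.36, and arrays 2 and 4 gave -0.82 and -1.001. In embryo 4, arrays 1 to 3 gave -1.12, -0.61 and -1.07, and array 4 gave 0.83. In thymus embryo 1 all 4 arrays were high, at 0.85 to 1.52.

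Igf2, the fetal insulin-like growth factor, was at 0.08, -0.40, -0.74, 0.03 and 0.42 in fibroblasts, a mean of -0.12 ± 0.45. In thymus it was at 0.48, 0.05, -0.14, -0.04 and 0.08, a mean of 0.08 ± 0.24. As with Dlk1, embryos 5 and 3 were the highest and lowest in fibroblasts, and embryos 1 and 3 in thymus. Several genes of the further lists below had that fibroblast order too. On the 4 arrays of fibroblast embryo 2 Igf2 was at -0.32, -0.69, 0.06 and -0.66, the third being the array that nearly matches array 4 of embryo 1.

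Mest, a paternally expressed gene of the alpha/beta hydrolase fold family, was the highest member in thymus, at 0.36, 0.42, -0.10, 0.46 and 0.13, a mean of 0.25 ± 0.23 with 15 of 18 arrays above 0. Its adjusted limma p was 0.553, and in fibroblasts it averaged -0.07 ± 0.24. Peg3, a zinc finger protein, averaged 0.02 ± 0.11 in thymus (0.08, -0.11, 0.02, 0.16 and -0.06) and 0.09 ± 0.23 in fibroblasts (0.12, 0.09, -0.15, -0.07 and 0.46). Plagl1, a zinc finger transcription factor, averaged 0.08 ± 0.17 in thymus (0.03, -0.01, -0.09, 0.12 and 0.36) and -0.07 ± 0.17 in fibroblasts (-0.27, -0.16, -0.06, -0.07 and 0.19). The Plagl1 ratio followed the dye, with array means in thymus of -0.28 with the hypomorph in Cy5 and 0.39 with it in Cy3.

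Of the maternally expressed genes that restrain growth, Grb10 was lower and Cdkn1c higher in hypomorph fibroblasts, and neither passed the test. Grb10, an adaptor that dampens signalling by the insulin and insulin-like growth factor receptors, was at -0.61, -0.81, -0.83, -0.22 and -0.20 in embryos 1 to 5. Every embryo was below the pool, and the mean of -0.53 ± 0.31 is 1.45-fold lower (adjusted limma p = 0.165). It was below 0 on 19 of 20 arrays and at 0.73 on array 4 of embryo 4, without which the mean was -0.58 (adjusted limma p = 0.08, range over all settings tried 0.00303 to 0.491). In thymus Grb10 was at 0.11, -0.14, 0.21, 0.05 and 0.12, a mean of 0.07 ± 0.13.

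Cdkn1c encodes p57, a cyclin-dependent kinase inhibitor. In fibroblast embryos 1 to 5 it was at 0.60, 1.09, 1.37, 0.14 and 0.35, all above the pool, a mean of 0.71 ± 0.51 or 1.64-fold higher (adjusted limma p = 0.195). It was the only member above 0 on all 20 fibroblast arrays, from 0.03 to 1.79, as were 0.0658% of 21276 features. These arrays are technical repeats of 5 embryos, so this count is not a test either. In thymus Cdkn1c was again above the pool in all 5 embryos, at 0.33, 0.18, 0.14, 0.08 and 0.07, a mean of 0.16 ± 0.10. There the array means were 0.43 with the hypomorph in Cy5 and -0.09 with it in Cy3, and 12 of 18 arrays were above 0.

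**Figure D3:**
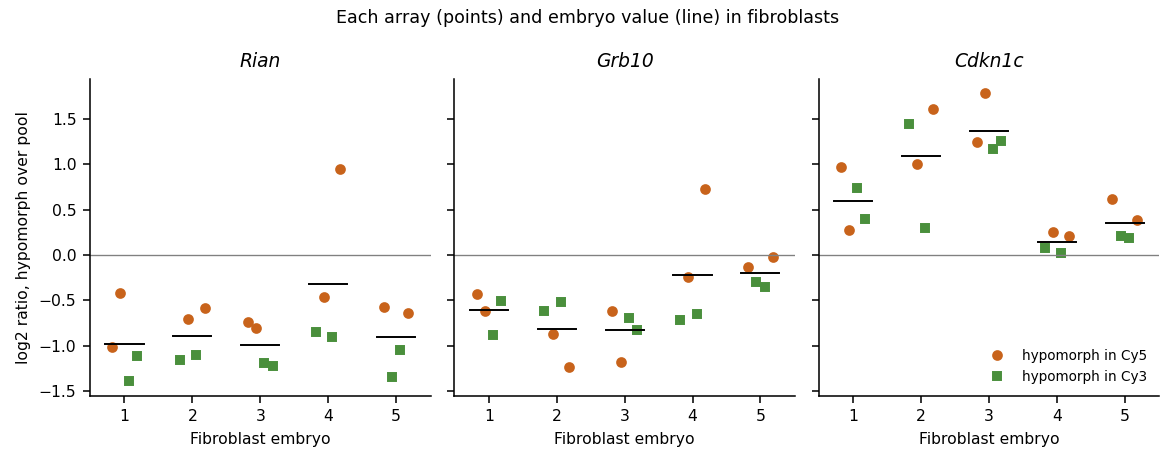
Log2 ratio of hypomorph over pool (y axis) on each fibroblast array for Rian, Grb10 and Cdkn1c, by embryo (x axis). Orange circles have the hypomorph in Cy5, green squares in Cy3, and lines are the embryo values. Rian and Grb10 lie below 0 on 19 of 20 arrays, the exception being array 4 of embryo 4, and Cdkn1c lies above 0 on all 20.

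Counting all members, the same sign in all 5 embryos was found for Cdkn1c (higher) and Kcnq1 (lower) in thymus, where 3.53% of features were higher and 4.86% lower in all 5. In fibroblasts it was found for Cdkn1c (higher), where 7.8% of features were, and for Rian, Grb10 and Gatm (lower), where 9.03% were. Kcnq1, a potassium channel, was only slightly below the pool in thymus, at -0.05 ± 0.03. Its thymus arrays averaged -0.25 with the hypomorph in Cy5 and 0.16 with it in Cy3, and 9 lay above and 8 below 0. Gatm, which makes the precursor of creatine, averaged -0.14 ± 0.11 in fibroblasts.

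Igf2r, the receptor that clears IGF2 and is expressed from the maternal copy, averaged 0.05 ± 0.17 in thymus (0.01, 0.21, -0.16, 0.24 and -0.06) and 0.21 ± 0.28 in fibroblasts (0.05, 0.27, 0.67, -0.04 and 0.08). Airn, the paternally expressed noncoding RNA that overlaps Igf2r, averaged -0.15 ± 0.34 in thymus, where embryos 1 to 5 were at 0.15, -0.17, -0.04, -0.73 and 0.02. Its ratio changed sign with the dye: the thymus arrays averaged -0.92 with the hypomorph in Cy5 and 0.58 with it in Cy3, and the fibroblast arrays -0.96 and 0.89. The organic cation transporters Slc22a2 and Slc22a3 of the same cluster lay between -0.04 and 0.12 in either tissue.

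Phlda2, which limits placental growth, was at 1.399, -0.07, 0.04, -0.03 and 0.03 in fibroblast embryos. The high value of embryo 1 came from array 3 alone, at 5.22, where the other 3 arrays of that embryo read 0.30, 0.20 and -0.13. In thymus Phlda2 averaged 0.05 ± 0.13.

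The remaining genes of the Kcnq1ot1 cluster included the tetraspanin Cd81, at -0.42, -0.95, -0.83, 0.07 and -0.15 in fibroblasts, a mean of -0.46 ± 0.44 with embryos 2 and 3 lowest. In thymus Cd81 averaged 0.11 ± 0.19. Slc22a18, a transporter, averaged -0.22 ± 0.16 in fibroblasts, from array means of 0.38 with the hypomorph in Cy5 and -0.82 with it in Cy3. Nap1l4, a nucleosome assembly protein, spread most in thymus, at 0.70, -0.40, 0.08, -0.34 and 0.13, with a mean of 0.03 ± 0.44. The means of Ascl2, a transcription factor of the trophoblast, Tssc4 and Osbpl5, an oxysterol-binding protein, lay between -0.08 and 0.23 in either tissue. Ascl2 was at -0.40 in thymus embryo 4, whose arrays 1 to 4 read 0.64, 0.59, -2.11 and -0.74. The Ascl2 ratio changed sign with the dye. Its thymus arrays averaged -0.89 with the hypomorph in Cy5 and 0.725 with it in Cy3, and its fibroblast arrays -0.50 and 0.56. The Osbpl5 mean in fibroblasts, 0.23 ± 0.41, held array 3 of embryo 1 at 2.57, against -0.35, 0.23 and 0.12 on the other arrays of that embryo.

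In the Snrpn cluster, which is deleted in Prader-Willi and Angelman syndromes, Snrpn itself, a splicing protein, averaged -0.01 ± 0.14 in thymus (0.16, -0.12, 0.13, -0.06 and -0.14) and -0.09 ± 0.07 in fibroblasts (-0.08, -0.11, -0.18, 0.003 and -0.08). Its 2 probes had opposite signs, at -0.22 and 0.05 in fibroblasts. Necdin (Ndn), which holds cells out of the cell cycle, averaged 0.02 ± 0.12 in thymus and was at 0.15, 0.91, 0.71, 0.12 and -0.10 in fibroblasts, a mean of 0.36 ± 0.43. Atp10a, a phospholipid-transporting ATPase, was at -0.27, 0.37, -0.25, 0.17 and -0.09 in thymus, a mean of -0.02 ± 0.28, and at -0.40, -0.54, -0.82, -0.27 and 0.02 in fibroblasts, a mean of -0.40 ± 0.31. Mkrn3, Peg12 and the ubiquitin ligase Ube3a lay between -0.02 and 0.18. The Mkrn3 ratio changed sign with the dye. Its thymus arrays averaged -0.45 with the hypomorph in Cy5 and 0.42 with it in Cy3, and its fibroblast arrays -0.33 and 0.42.

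In the Peg3 cluster, the means of Zim1 and Usp29 lay between 0.02 and 0.19, with Zim1 at 0.56 in fibroblast embryo 2. The arrays of that embryo read 1.86, 0.12, 0.51 and -0.26. The Zim1 ratio changed sign with the dye. Its fibroblast arrays averaged -0.20 with the hypomorph in Cy5 and 0.57 with it in Cy3, and its thymus arrays -0.44 and 0.56. Copg2, a coatomer subunit beside Mest, averaged 0.06 ± 0.06 in thymus and -0.05 ± 0.07 in fibroblasts. Its arrays averaged 0.43 (Cy5) and -0.29 (Cy3) in thymus, and 0.29 and -0.39 in fibroblasts. Peg10, derived from a retrotransposon, with Sgce, Ppp1r9a, Asb4 and the calcitonin receptor Calcr had means between -0.11 and 0.18, and Sgce was at 0.53 and 0.42 in fibroblast embryos 2 and 3. Gnas, the stimulatory G protein subunit, averaged 0.01 ± 0.02 in thymus and -0.07 ± 0.08 in fibroblasts over 4 probes, and the means of Ddc, Nnat and Blcap lay between -0.07 and 0.26. The highest was Blcap in fibroblasts, at 0.53 and 0.69 in embryos 2 and 3 and between -0.003 and 0.03 in the others. Those values near 0 are averages of arrays that disagree. Embryo 4 held array 4 at 1.06 and was at -0.23 without it. In embryo 5 Blcap was at 0.42 and 0.44 with the hypomorph in Cy5 and at -0.29 and -0.45 with it in Cy3. Dio3 of the Dlk1-Meg3 cluster, which inactivates thyroid hormone, averaged 0.03 ± 0.08 in thymus and 0.23 ± 0.44 in fibroblasts, with embryo 2 at 0.76.

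Among single loci, Dcn (decorin, a proteoglycan of the extracellular matrix, imprinted in mouse placenta) had the widest range. In fibroblasts it was at 0.38, 1.88, 4.63, 0.49 and -0.37, a mean of 1.404 ± 1.98 (adjusted limma p = 0.392). Embryos 2 and 3 were high, and embryo 5 was below the pool. In embryo 3 all 4 arrays were high, at 4.42 to 5.07. In embryo 2 arrays 1 and 4 gave 3.495 and 3.72, against 0.16 and 0.14 on arrays 2 and 3.

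In thymus Dcn was at 0.04, -0.51, -0.51, -0.17 and -0.36, a mean of -0.30 ± 0.24, the lowest member there, with 16 of 18 arrays below 0 (adjusted limma p = 0.455). Of the mesenchyme and fibroblast markers, 9 of 12 had a mean below 0 in thymus, with a median of -0.06, where 9901 of 21947 features were below 0. Their medians per embryo were -0.02, -0.07, -0.25, -0.04 and -0.17. In limma 0 of 12 passed, and 4 had an unadjusted p under 0.05, all lower. Of all features 7.48% reached that p in either direction. The adipocyte markers had 5 of 6 below 0 and a median of -0.19 in thymus, with 0 passing in limma and 3 at an unadjusted p under 0.05, all lower. The part of these markers in the thymus Dcn value was not tested. In fibroblasts 7 of the 12 mesenchyme and fibroblast markers were above 0, where 10813 of 22025 features were. Their medians per embryo were -0.06, 0.05, 0.12, 0.03 and -0.12. In embryos 2 and 3, Lum was at 1.15 and 2.18, Pdgfra at 0.41 and 1.79, and Postn at 0.26 and 1.42. Col3a1, Col6a1, Col1a2 and Pdgfrb lay between 0.01 and 0.85 there. Below 0 in both were Col1a1, at -1.745 and -1.34, and Thy1, S100a4, Vim and Fbln1, at -0.62 to -0.07. Of 6 adipocyte markers 4 were above 0 in fibroblasts. In limma 0 passed and 2 had an unadjusted p under 0.05, where 16.1% of all features reached it. The medians of these markers per embryo were 0.02, 1.10, 0.25, 0.16 and 0.001. In embryos 2 and 3 they were at 1.25 and 2.83 for Lpl, 1.84 and 0.74 for Fabp4, 1.41 and 0.27 for Adipoq, and 0.95 and 0.22 for Car3, while Plin1 and Cfd lay between -0.09 and 0.04 there. The part of the mesenchyme and adipocyte markers in the Dcn values of fibroblasts was not tested.

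Impact, a regulator of translation, was at -0.22, 0.32, -0.41, 0.02 and -0.25 in thymus, a mean of -0.11 ± 0.28, and at -0.42, 0.08, 0.73, -0.12 and -0.45 in fibroblasts, a mean of -0.04 ± 0.48. Slc38a4, an amino acid transporter, Rasgrf1, an exchange factor for Ras, and Nap1l5 lay between -0.06 and 0.14 in either tissue.

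The difference between the tissues was tested directly, as thymus minus fibroblasts over 10 embryos. No member passed in limma, where 0.412% of 21850 features did, and 10 of 46 had an unadjusted p under 0.05, where 15.4% of features did. Rian was nearest: -0.02 in thymus and -0.82 in fibroblasts, a difference of 0.80 ± 0.15 (SE) with an adjusted limma p of 0.0513. Grb10 followed, at 0.07 in thymus and -0.53 in fibroblasts, a difference of 0.60 ± 0.14 (SE) with an adjusted limma p of 0.0816.

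Without array 4 of fibroblast embryo 4, both passed, as did 1.34% of 21782 features. The Rian difference was then 0.87 ± 0.11 (SE; adjusted limma p = 0.0101, range over all settings tried 0.00669 to 0.272) and that of Grb10 0.65 ± 0.12 (SE; adjusted limma p = 0.0335, range 0.0127 to 0.439). The other named differences did not pass. They were 0.26 for Gatm, 0.26 for Slc22a18, 0.56 for Cd81, -0.55 for Cdkn1c, 0.33 for Mest and 0.39 for Atp10a, with adjusted limma p of 0.130 to 0.299. Tissue and age are confounded here, since thymus was taken at 18.5 dpc and fibroblasts at 12.5 dpc.

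**Figure D4:**
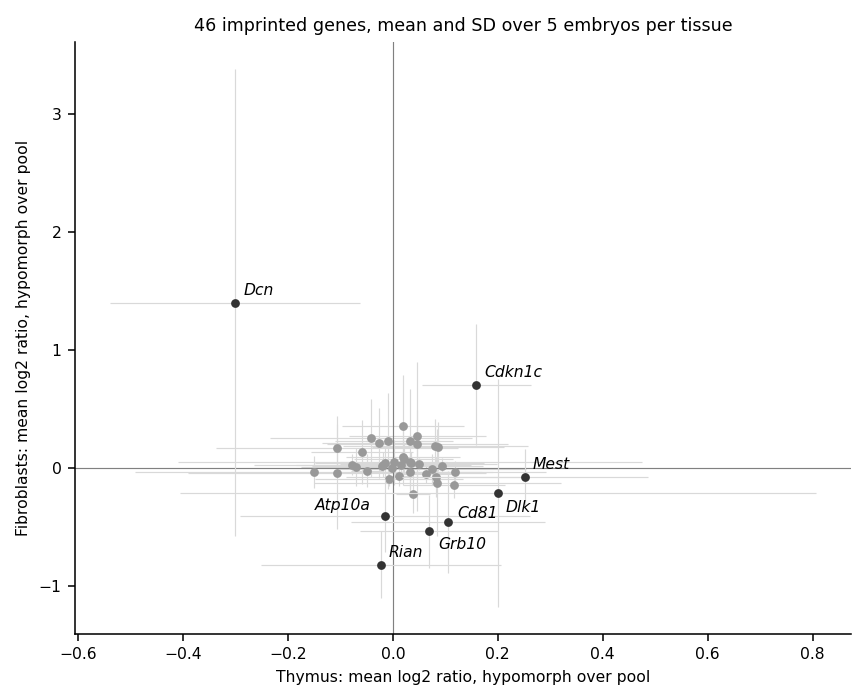
Mean log2 ratio of hypomorph over pool in fibroblasts (y axis) against thymus (x axis) for the 46 imprinted genes tested in both, with SD bars over 5 embryos per tissue and unequal axis scales. Rian and Grb10 lie low in fibroblasts and near 0 in thymus, and Dcn lies at -0.30 in thymus and 1.404 in fibroblasts with the longest bars.

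Within fibroblasts many members, like many of all features, divided by the name series of the arrays. All arrays of embryos 2 and 3, and array 4 of embryo 1, have titles beginning AYX or AYY, and all other arrays AYT. What the letters stand for is not given in the labels. For 27 of 47 members, or 57.4%, the values of embryos 2 and 3 did not overlap those of embryos 1, 4 and 5, against 44.8% of 22025 features. No member or feature passed a test of that difference after adjustment in limma (22 members at an unadjusted p under 0.05, or 46.8%, against 21.1% of features). The means of embryos 2 and 3, then of embryos 1, 4 and 5, were -1.03 and 0.34 for Dlk1, -0.57 and 0.18 for Igf2, 1.23 and 0.36 for Cdkn1c, 0.81 and 0.06 for Ndn, and 3.26 and 0.17 for Dcn. Grb10 was below 0 in both sets, at -0.82 and -0.34, and Rian, whose sets overlapped, was at -0.94 and -0.74. Array 4 of embryo 1, the only AYX or AYY title outside embryos 2 and 3, is among the arrays in doubt. It had Ndn at 0.835, against -0.525 to 0.32 on the AYT arrays of that embryo, and Cd81 at -1.39, against -0.535 to 0.18. By contrast it read 0.095 for Igf2 and 0.145 for Dcn, against 0.045 to 0.12 and 0.19 to 0.97 on those arrays. The title series and the embryos cannot be told apart.

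**Figure D5:**
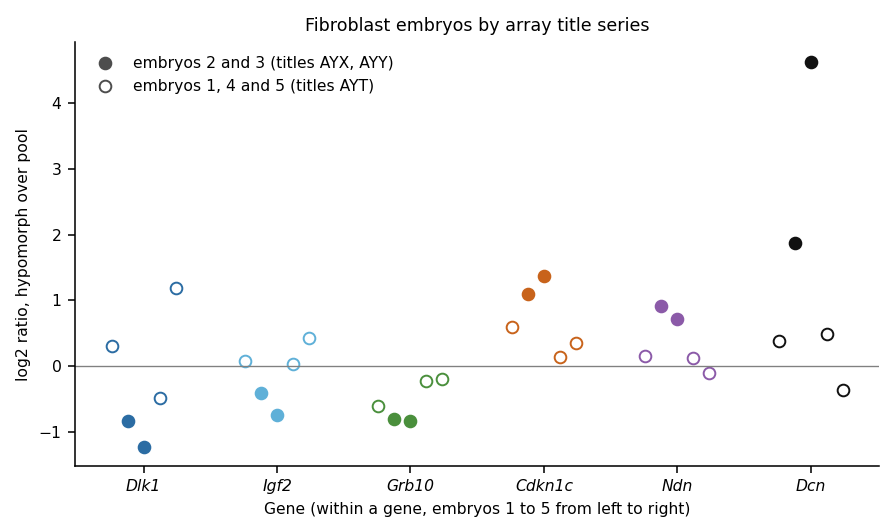
Log2 ratio of hypomorph over pool (y axis) in fibroblast embryos 1 to 5 (left to right within each gene) for 6 imprinted genes (x axis). Filled circles are embryos 2 and 3, with array titles AYX or AYY, and open circles embryos 1, 4 and 5, with titles AYT except for array 4 of embryo 1. The 6 genes were picked from the 27 members whose circles do not overlap, and the other 20, Rian among them, do overlap.

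Genes around the imprinted set were read from 3 further lists. Of 39 measured genes among 45 other imprinted or reportedly imprinted genes, 0 rose and 0 fell past the threshold in limma in either tissue, with 1 at an unadjusted p under 0.05 in thymus, where 7.48% of all features reached it, and 6 in fibroblasts, where 16.1% did. The medians were -0.001 in thymus and -0.016 in fibroblasts. Those with 1 sign in all 5 embryos and the largest means were Jade1 (0.13 ± 0.07), Casd1 (0.13 ± 0.13) and Pon2 (0.09 ± 0.02) in thymus. In fibroblasts they were Dhcr7, an enzyme of cholesterol synthesis (0.46 ± 0.29), Commd1 (0.25 ± 0.17) and Ampd3 (-0.16 ± 0.09).

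Of 20 measured factors that maintain imprints or DNA methylation, none passed in limma in either direction, with 3 at an unadjusted p under 0.05 in thymus and 1 in fibroblasts, against 7.48% and 16.1% of all features. In thymus 16 of the 20 lay above 0 with a median of 0.08, where 12046 of 21947 features did with a median of 0.008. The medians per embryo were 0.02, 0.24, 0.01, 0.10 and -0.01, highest in embryos 2 and 4. Uhrf1, which brings the maintenance methyltransferase to replicated DNA, was at 0.38, 0.34, 0.12, 0.26 and 0.19 there, a mean of 0.26 ± 0.11 (adjusted limma p = 0.260). Hells, a chromatin remodeller needed for DNA methylation, averaged 0.16 ± 0.07, and Zfp445, a zinc finger protein that protects imprints, -0.13 ± 0.12. In fibroblasts 13 of the 20 lay above 0 with a median of 0.04, and none had 1 sign in all 5 embryos.

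Of 19 measured genes of the insulin-like growth factor axis, 0 passed in limma in either tissue, with 3 at an unadjusted p under 0.05 in thymus and 2 in fibroblasts, against 7.48% and 16.1% of all features. The binding proteins Igfbp1 and Igfbp3 had the largest means of the 3 in thymus, at -0.74 ± 0.70 and 0.43 ± 0.32, each with 1 embryo on the other side of 0. Igf2bp1, which binds Igf2 messenger RNA, was at 0.69, 0.04, 0.17, 0.38 and 0.38 in thymus, a mean of 0.33 ± 0.25 (adjusted limma p = 0.409). In fibroblasts it was at 0.07, -0.56, -0.73, -0.02 and 0.60. Embryos 5 and 3 were its highest and lowest there, as they were for Igf2, Dlk1, Igf2bp2, Igfbp2, Uhrf1, Zfp57 and Bcl2l1. How many of all features share that order was not counted. Igfbp4, a binding protein that holds IGF in the extracellular space, averaged 0.28 ± 0.13 in fibroblasts and Igf2bp3 0.17 ± 0.15. In thymus, Htra1, a protease that cleaves IGF binding proteins, averaged -0.06 ± 0.05.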

How the data were processed

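The deposited series table holds log2 ratios per spot, made by the authors from 2-colour arrays; how they were background-corrected and normalized is not stated in the sources used here. It has 25344 spots and 38 arrays, and depth does not apply: the number of arrays limits the precision. Values at the bound (16.61, 1 to 50 spots per array) were set missing, and each array was centred on its median (from -0.89 to 1.14 before centring). Arrays were averaged within a dye orientation and then over both, needing a value in each, and probes of a symbol were averaged. Symbols came from the platform annotation, updated through the RefSeq gene table (GRCm38.p6) for 3974 of 21111 probes, with 4233 probes unnamed. Ratios were tested against 0 over 5 embryos per tissue, and between tissues over 10, with limma 3.58.1 in R 4.3.3 (lmFit, eBayes, two-sided, Benjamini-Hochberg over all features), tested on simulated data.

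Members, lists and the rule for named genes were chosen with earlier results of these data known. Named were 11 members fixed by name (H19 among them), those passing a test, those with 1 sign in all 5 embryos and a mean of at least 0.25, the 6 with the largest SD per tissue, up to 8 with an unadjusted p under 0.05 in the difference, and up to 3 per companion list. Ndn, Kcnq1, Mirg, Igfbp1, Igfbp3 and others outside that rule were named after their values were seen. Embryo numbers of the tissues name different embryos: deviations of same-numbered embryos correlated at -0.04 to 0.09. Alternatives covered centring, scaling, dye, probes, bounds, missing values, weights and each left-out embryo or doubted array.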

Additional observations from a re-analysis of the deposited data

Results flagged for a closer look

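With 5 embryos per group, 4 of 93 gene and tissue combinations had a highest or lowest embryo that stood apart by most of the group's range, and chance gives such an embryo in about 1 in 20 groups. Rian in fibroblast embryo 4 was at -0.316, where the other 4 embryos were at -0.99 to -0.89. Without array 4 of that embryo, which read 0.95, the embryo was at -0.67. Phlda2 in fibroblast embryo 1 was at 1.399, where the others were at -0.07 to 0.04. Ascl2 in thymus embryo 4 was at -0.403, where the others were at -0.03 to 0.07. That embryo held array 3 at -2.11, against 0.64, 0.59 and -0.74 on its other arrays. Mirg in thymus embryo 3 was at 0.181, where the others were at -0.07 to -0.02.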

How the results depend on the processing

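Of 686 values of named members under other settings, 602 kept their direction and their side of the threshold, 28 newly passed it and 56 turned sign. No member passed at the start, so none could lose a call. Settings that use 1 dye orientation do not cancel dye effects. With the hypomorph in Cy5 alone, 12 members passed in thymus and 16 in fibroblasts (medians 0.075 and 0.111), among 4880 and 6307 features. In Cy3 alone 9 and 17 passed (medians -0.070 and -0.028), among 5246 and 8144 features. Single arrays with the embryo as a random block gave 2 members in thymus and 6 in fibroblasts, among 413 and 2110 features. Without centring, the thymus median was 0.050. Without array 4 of embryo 4, 1 member passed in fibroblasts among 83 features. In the difference between tissues 2 passed without that array, 2 without it and arrays 2 and 4 of embryo 1, 2 in Cy3 alone (among 285 features) and 1 with each probe apart. The number of features passing went from 0 to 5246 in thymus, 0 to 8144 in fibroblasts and 0 to 374 in the difference. With 1 embryo left out in turn, 0 members passed in thymus, 0 to 1 in fibroblasts and 0 to 2 in the difference. The pass in fibroblasts was Rian without embryo 4 (-0.944). The passes in the difference were Rian (0.923) and Grb10 (0.681) without fibroblast embryo 4 and Grb10 (0.686) without fibroblast embryo 5. With embryo number as a replicate block, the Rian difference stayed at 0.797 (adjusted limma p = 0.0759), 0 members and 1 feature passed, and no call on a member changed.

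Sign changes in thymus were Meg3 0.009, Snrpn 0.022 and Atp10a 0.015 uncentred; Nap1l4 -0.029 with arrays scaled; Igf2r -0.029, Peg3 -0.033, Snrpn 0.065 and Plagl1 -0.244 in Cy5 alone; and Igf2 -0.012, Cdkn1c -0.083, Nap1l4 -0.408, Airn 0.591 and Atp10a 0.138 in Cy3 alone. Single arrays gave Snrpn 0.002, the first probe Meg3 0.062 and Snrpn 0.052, embryo weights Igf2r 0.000, Meg3 0.010, Snrpn 0.071 and Airn 0.017, and arrays with a labelled genotype alone Nap1l4 -0.031 and Atp10a 0.000. In fibroblasts they were Dlk1 0.048, Meg3 -0.022, Mest 0.169, Snrpn 0.054 and Impact 0.149 in Cy5 alone, Plagl1 0.190 in Cy3 alone, and Meg3 -0.035 and Snrpn 0.046 by probe. Embryos 1, 4 and 5 alone gave Igf2 0.176, Dlk1 0.337 and Mest 0.039, and embryos 2 and 3 alone gave Meg3 -0.024, Peg3 -0.029, Phlda2 -0.018 and Impact 0.403, both chosen after seeing the data, as were the settings without the near-identical pair alone and, in the difference, without array 4 of embryo 4. The Slc22a18 difference was -0.057 in Cy5 alone. With 1 embryo left out, thymus means ran from -0.012 to 0.143 for Igf2, -0.056 to 0.321 for Dlk1, -0.134 to 0.140 for Nap1l4, -0.111 to 0.049 for Atp10a, -0.065 to 0.028 for Meg3, -0.050 to 0.025 for Snrpn and -0.017 to 0.051 for Peg3. Fibroblast means ran from -0.001 to 0.034 for Meg3, -0.010 to 0.359 for Phlda2, -0.228 to 0.067 for Impact, -0.258 to 0.031 for Igf2, -0.561 to 0.042 for Dlk1 and 0.000 to 0.152 for Peg3. For Rian in fibroblasts every setting was below 0, from -1.135 to -0.502. The causes of these changes were not tested. Signal over background is unknown here.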
